A study of Mus musculus with 6 samples.

Results

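Open chromatin was examined at 8 genes of corticosteroid action: the 2 receptor genes Nr3c1 and Nr3c2, the steroid-converting enzyme genes Hsd11b1 and Hsd11b2, and 4 classic target genes, Fkbp5, Tsc22d3, Sgk1 and Zbtb16. A region was counted for a gene when its summit lay in the gene body or within 50 kb of it. This gave 178 of the 99359 regions seen in the series. The data were 6 ATAC-seq libraries, in which a transposase inserts sequencing adapters into open DNA. They came from S1 proximal tubules, the first segment of the tubule after the glomerulus, dissected by hand from kidneys of wild-type male C57BL/6 mice (Taconic) that were operated on at 7 weeks of age. In 3 libraries (Sham 1 to Sham 3) the mice had a sham operation, and in 3 (UNx 1 to UNx 3) one kidney had been cut out (unilateral nephrectomy, UNx). All 6 were taken at 24 h, so both groups had undergone surgery. Each library was made from 3 lysed tubules and not from sorted cells. Nothing in the labels ties a library to its own mouse, so p-values measure only the spread between these libraries.

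Cortisol or corticosterone enters a cell and binds the glucocorticoid receptor (Nr3c1) or the mineralocorticoid receptor (Nr3c2), which then moves to the nucleus and binds DNA at glucocorticoid response elements, a pair of short half-sites facing each other. Hsd11b1 regenerates active glucocorticoid inside cells, and Hsd11b2 inactivates it and so keeps the mineralocorticoid receptor free for aldosterone. In the kidney the mineralocorticoid receptor and Hsd11b2 are best known from the distal tubule and collecting duct, while the glucocorticoid receptor is active along the nephron, the proximal tubule included.

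The sequences below show the response element strings on which the comparison of the target genes turns. The string searched was GNACANNNTGTNC on both strands, in the 300 bases around each summit. It always contains the shorter core ACANNNTGT. At least 1 full string stood in 8 of the 178 regions (4.49%) and in 727 of all 99359 (0.732%). The capitals mark the string, with 24 bases on each side, read on the forward strand of GRCm38 (mm10). The signed distance in each name runs from the nearest annotated start of the gene to the summit, and negative values are upstream. Shown are the strings outside annotated exons; the other lay in a region at −5.6 kb of Fkbp5, over an exon of a noncoding gene.
Hsd11b1 −46.8 kb (chr1:193310884-193310944): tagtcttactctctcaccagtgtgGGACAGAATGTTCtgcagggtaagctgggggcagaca
Fkbp5 +21.5 kb (chr17:28420298-28420358): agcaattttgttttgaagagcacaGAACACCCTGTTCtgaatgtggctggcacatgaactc
Fkbp5 −0.6 kb (chr17:28518156-28518216): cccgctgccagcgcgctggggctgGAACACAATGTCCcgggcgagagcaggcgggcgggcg
Tsc22d3 +37.3 kb (chrX:140505942-140506002): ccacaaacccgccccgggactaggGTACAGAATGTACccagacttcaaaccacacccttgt
Sgk1 −0.3 kb (chr10:21993678-21993738): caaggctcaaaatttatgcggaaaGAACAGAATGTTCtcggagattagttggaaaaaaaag
Zbtb16 +98.3 kb (chr9:48737578-48737638): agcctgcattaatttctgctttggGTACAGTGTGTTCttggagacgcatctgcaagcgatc
Zbtb16 +95.6 kb (chr9:48740240-48740300): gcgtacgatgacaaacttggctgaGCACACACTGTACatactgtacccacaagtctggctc
Zbtb16 +95.6 kb, second string (chr9:48740249-48740309): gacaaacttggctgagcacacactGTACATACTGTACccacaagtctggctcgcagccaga
The region that rose near Zbtb16 is shown by the 300 bases around its summit (chr9:48649190-48649489), in which neither form of the response element string was found.
Zbtb16 +186.6 kb: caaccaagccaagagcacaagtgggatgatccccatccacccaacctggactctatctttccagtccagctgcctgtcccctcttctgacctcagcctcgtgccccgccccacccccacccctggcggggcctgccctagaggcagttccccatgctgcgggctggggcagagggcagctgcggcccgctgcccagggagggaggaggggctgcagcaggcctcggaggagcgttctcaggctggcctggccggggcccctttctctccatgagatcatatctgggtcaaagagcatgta

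Regions were compared by percentile rank. Within each list, peaks were ranked by the authors' −log10 q, and the rank was scaled so that 100 is the strongest peak and 0 means no peak among the 77355 strongest, the length of the shortest list. The deposited lists held 77355 to 100999 peaks, with a median −log10 q of 12.1 (Sham 2) to 26.5 (UNx 3), so q values of different libraries were not set against each other. As a check on the tissue, all 8 S1 marker genes, Slc5a2 and Lrp2 among them, had a promoter region in all 6 lists. The 4 immune marker genes had a promoter region in 0 lists. Of 9 distal tubule and collecting duct markers, 5 had a promoter region in at least 1 list, while Slc12a3, Aqp2, Scnn1b and Slc4a1 had none. The average of these 9 was 31.0 to 32.9 in Sham and 27.7 to 35.7 in UNx libraries. For the 4 podocyte markers it was 25.9 to 34.4 and 29.2 to 35.3. Averages of 3 other lists were wholly lower in UNx libraries. They were 39.5 to 41.7 against 28.1 to 37.5 for 3 loop of Henle markers, 1.23 to 7.05 against 0 to 1.10 for 4 endothelial markers, and 23.0 to 23.1 against no more than 22.0 for 3 stromal markers, of which Pdgfrb and Acta2 were at 0. Of the loop markers Slc12a1 was the lower one, at 52.4 to 60.2 in Sham and 19.4 to 38.2 in UNx libraries, while Umod averaged 65.4 and 69.4 with overlapping groups and Cldn16 was in 1 UNx list. The part of these cells in the results that follow was not tested.

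Of the 178 regions, 20 were promoters of the 8 genes (summit within 1 kb of one of their annotated starts), 12 were promoters of other coding genes inside the windows, and 146 were distal. All 6 lists held 98 of them (55.1%, against 53.4% of all regions), and 27 were in 1 list. The single Sham lists held 124, 139 and 132 of the regions and the UNx lists 132, 132 and 141, so the counts of the groups overlapped. The 133 regions present in at least 3 lists were tested together with all others in limma.

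UNx and Sham differed at an adjusted p under 0.05 (limma) in 2 of the 133 tested regions, 1 lower and 1 higher after UNx. Over the whole series the share called was 0.788%. An unadjusted p under 0.05 was found in 27 regions (20.3%, against 18.6% of all tested regions). The 3 UNx values lay above the 3 Sham values in 20 regions (15.0%, against 12% of all tested regions) and below them in 16 (12.0%, against 11.7%). Presence in all 3 lists of one operation and none of the other was found in 2 of the 178 regions, both UNx. Of all regions 1.98% met that condition. Such regions pass the filter of 3 lists through 1 operation alone, so the 2 stand among the 20 by that filter. The shares of all tested regions include such regions too. The lists were cut to equal length, and among all deposited peaks neither of the 2 met it. There Nr3c1 +108.3 kb and Zbtb16 −31.1 kb met it for UNx, and Hsd11b1 +1.7 kb and Fkbp5 +21.5 kb for Sham. These regions are picked here for that. With regions rebuilt from all deposited peaks, 5 of 222 met it, 4 for UNx and 1 for Sham. The share of all regions rebuilt in this way is not given here, so no lean to either operation is read from this count. The median difference was −0.165 percentile points over the 133 regions and −0.0112 over all tested regions. By these counts the 8 genes as a group stood near the background. In bulk tubules, fewer cells with an open region and weaker opening in each cell cannot be told apart.

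**Figure D1:**
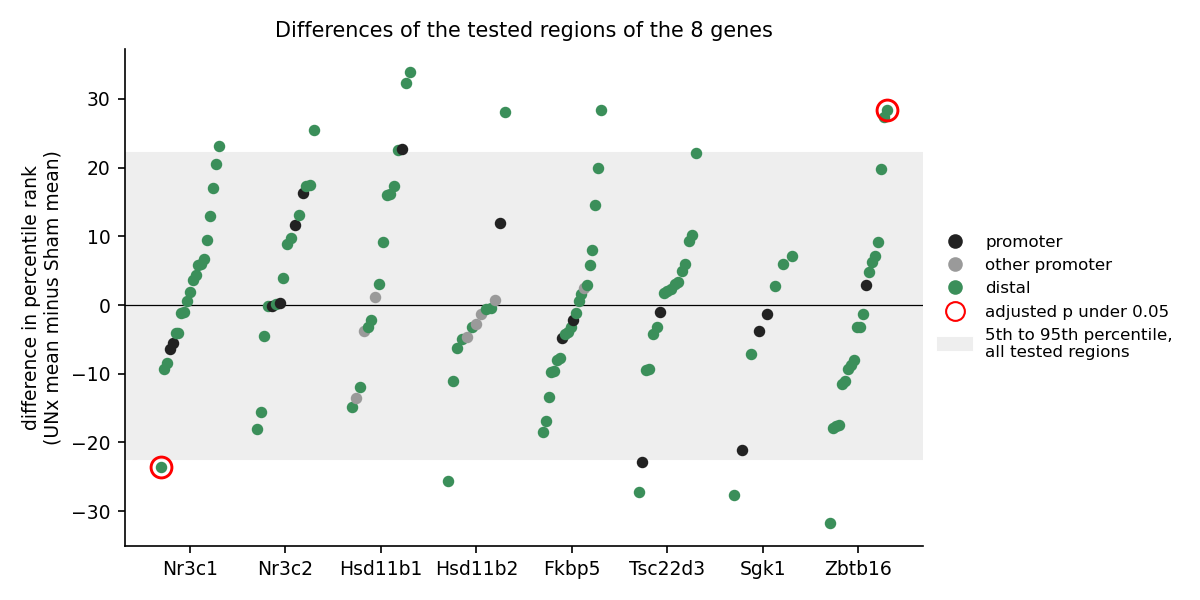
Difference in percentile rank (UNx mean minus Sham mean) of the 133 tested regions, by gene, with promoters of the gene in black, promoters of other genes in grey and distal regions in green. The grey band spans the 5th to the 95th percentile of all tested regions (−22.3 to 22.1), and red rings mark the 2 regions past an adjusted p of 0.05, an Nr3c1 region at −23.5 and a Zbtb16 region at 28.3.

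The promoters of the 8 genes differed in strength, from the top of the lists to their lower part. The strongest promoter region of Nr3c2 averaged 98.6 ± 0.740 over the 6 libraries (SD), that of Sgk1, a kinase that promotes sodium uptake, 98.5 ± 1.13, and that of Fkbp5, a co-chaperone that restrains the glucocorticoid receptor, 98.4 ± 1.42. These 3 ranges overlapped each other, and their order differed between the operations. Nr3c1 followed at 88.3 ± 5.00, then Zbtb16, a zinc finger repressor, at 80.1 ± 3.61, Tsc22d3, the leucine zipper protein GILZ, at 76.2 ± 4.66, and Hsd11b2 at 65.9 ± 8.18. Among the genes named so far each overlapped its neighbour in the order, except that Fkbp5 lay wholly above Nr3c1. Hsd11b1 was last at 37.8 ± 15.7, with its range wholly below that of Hsd11b2. Ranks of different genes also carry the width and base content of each region, so the order is one of peak strength and not of receptor or enzyme amount.

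**Figure D2:**
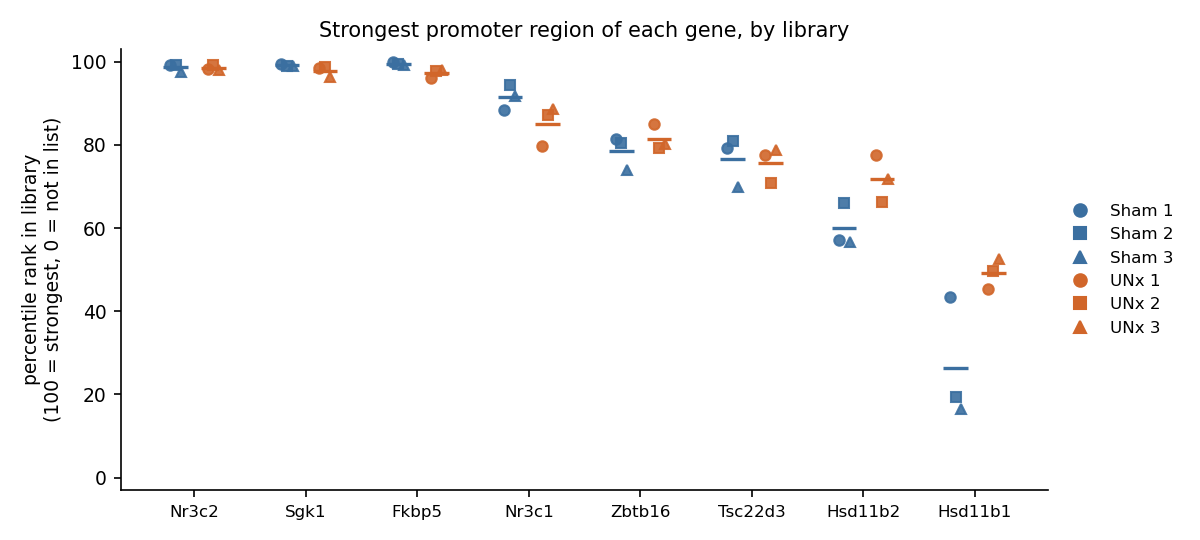
Percentile rank of the strongest promoter region of each gene in each library (vertical axis, 100 strongest), with Sham in blue, UNx in orange, marker shape for the library number and bars for group means. Nr3c2, Sgk1 and Fkbp5 lie above 96.0 in all 6 libraries, and the UNx values of Hsd11b1 (45.3 to 52.7) and Hsd11b2 (66.2 to 77.6) lie above the Sham values.

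The glucocorticoid receptor gene Nr3c1 (chromosome 18, 39410545 to 39519421, minus strand) had 27 regions, 2 of them promoters. Its strongest promoter region was 2834 bp wide. The ranks were 88.3, 94.4 and 91.7 in Sham and 79.6, 87.2 and 88.6 in UNx libraries. The UNx values were mostly lower, but UNx 3 lay above Sham 1 (difference −6.35 ± 2.72, SE; limma adjusted p = 0.219). Over 16 alternatives the difference ranged from −24.6 to 54.6. It stayed negative in 15 of them and was positive in 1. The second promoter region, at the downstream starts, ranked at 47.6 to 65.2 in Sham and 38.4 to 60.5 in UNx libraries, and the groups overlapped (adjusted p = 0.760).

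Inside Nr3c1, 1 intron region fell after UNx. It lies at +23.5 kb (chr18:39463280-39463841), and its summit window holds 1 core string ACANNNTGT but not the full string. Its percentile ranks were 86.8, 87.2 and 89.0 in Sham and 55.7, 74.6 and 62.0 in UNx libraries. All 3 Sham values were close together and above every UNx value, and the difference was −23.5 ± 4.96 (SE; limma adjusted p = 0.0383). The fold enrichment that the authors' peak caller gave, which is the caller's value for each peak, was 9.92, 8.98 and 10.4 in Sham and 5.48, 7.71 and 6.01 in UNx libraries. This second measure was also separated between the operations. It comes from the same peaks and is not independent support, here or for the regions below. The adjusted p was 0.0834 to 0.142 without any one of Sham 1, Sham 2, Sham 3, UNx 1 and UNx 3, and 0.0274 without UNx 2. The difference was negative in all 16 alternatives and passed the threshold in 3 of them.

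Regions beside it did not share this direction. At +20.1 kb the ranks were 71.8, 71.1 and 69.3 in Sham and 82.8, 79.4 and 78.4 in UNx libraries (limma adjusted p = 0.252). At +26.2 kb they were 6.07, 29.8 and 32.9 against 45.7, 48.1 and 44.4 (adjusted p = 0.245). In both of these flanking regions, picked here for their position next to the region that fell, every UNx value was above every Sham value, but neither passed the threshold. Of the 19 tested distal regions of Nr3c1, 5 had UNx values wholly above Sham (26.3%) and 1 wholly below (5.26%), against 12.2% in each direction of all tested regions beyond 1 kb of a coding start. Of the 5, 1 at +123.2 kb was tested only because all 3 UNx lists held it, so its place in this count was fixed by the filter.

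The strongest distal region of Nr3c1, at −67.9 kb, ranked at 91.0, 78.9 and 89.2 in Sham and 83.0, 80.9 and 70.0 in UNx libraries, with overlapping groups (adjusted p = 0.280). A weak region at +123.2 kb, downstream of Nr3c1 and inside Arhgap26, was among the 77355 strongest peaks in the UNx lists only, at 20.9, 2.74 and 37.8. Among all deposited peaks Sham 3 also held it, so its absence from the Sham 3 list depended on where the lists were cut. Sham 1 and Sham 2 did not hold this region among all deposited peaks either (limma adjusted p = 0.244). Its rank in UNx 2 was close to 0.

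**Figure D3:**
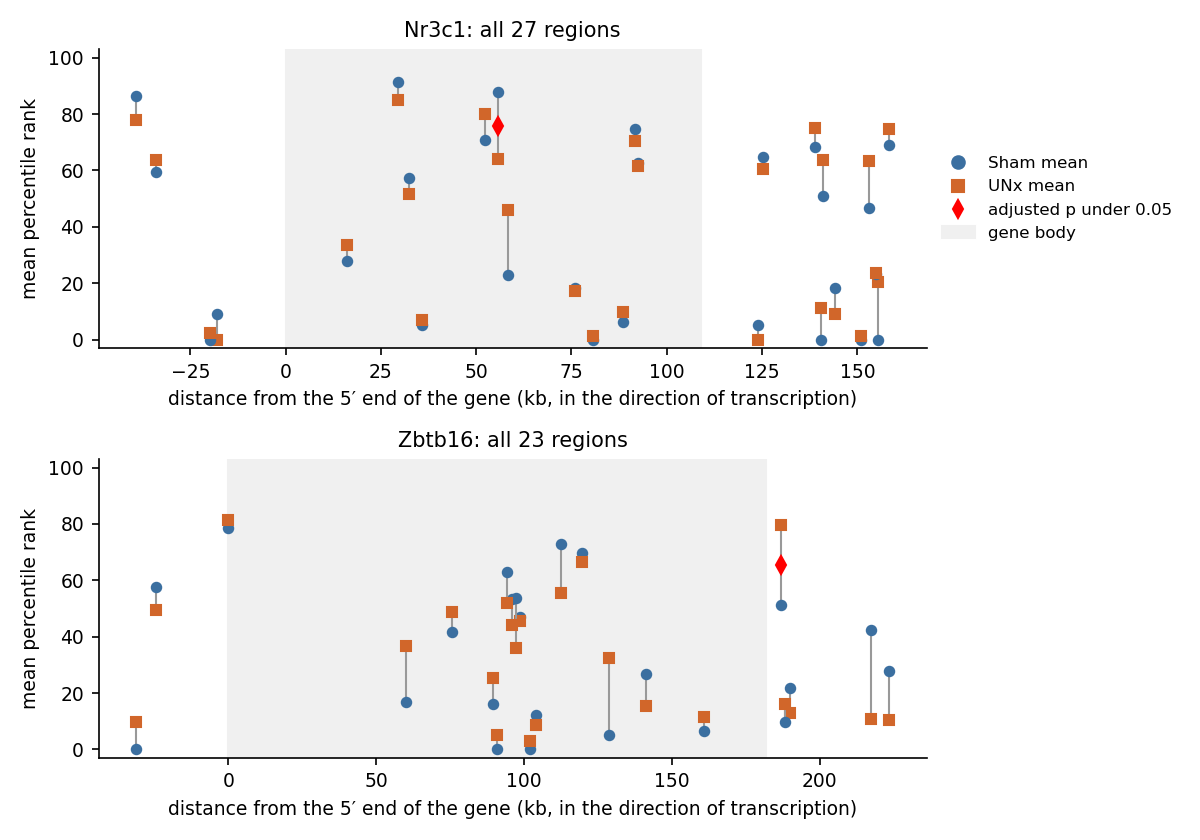
Mean percentile rank of every region of Nr3c1 (27) and Zbtb16 (23) in Sham (blue circles) and UNx (orange squares) libraries, plotted by distance in kb from the gene's 5′ end, with the gene body shaded and a grey line joining the means of 1 region. Red diamonds mark the Nr3c1 intron region (87.7 in Sham, 64.1 in UNx) and the region past the end of Zbtb16 (51.4 in Sham, 79.7 in UNx).

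The mineralocorticoid receptor gene Nr3c2 (chromosome 8, 76899442 to 77245012, plus strand) had 18 regions, the fewest per length of window (4.04 per 100 kb). Its strongest promoter region ranked at 99.3, 99.1 and 97.6 in Sham and 98.2, 99.3 and 98.0 in UNx libraries. The groups overlapped at the top of the scale, with a difference of −0.165 ± 1.25 (SE; adjusted p = 0.963). The other 3 promoter regions, all within 1 kb of its most upstream start, reached 44.3 and 70.3 in UNx 3 and no more than 34.2 in the other 5 libraries. None of the 4 passed the threshold.

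The Nr3c2 region with the smallest p lay at +353.2 kb (chr8:77261033-77262057), past the gene's end and inside Arhgap10. It ranked at 40.0, 48.3 and 38.8 in Sham and 70.4, 58.9 and 74.1 in UNx libraries. Every UNx value was above every Sham value, but the difference of 25.4 ± 7.41 (SE) did not pass the threshold (limma adjusted p = 0.0921). The most accessible distal regions were at +224.8 kb in an intron and at +359.8 kb. The first ranked at 78.1, 80.5 and 81.9 in Sham and 95.8, 77.2 and 96.8 in UNx libraries, so UNx 2 stood with the Sham libraries (adjusted p = 0.206, and 0.0285 without UNx 2). The second lay between 85.8 and 91.4 in all 6 libraries. Over its 16 tested regions Nr3c2 had a median difference of 6.38, with 1 region wholly higher in UNx libraries (6.25%, against 12% of all tested regions) and 0 wholly lower (against 11.7%).

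By promoter rank over the 6 lists, the promoters closest to that of Nr3c1 among 13795 genes were those of Pdxk, pyridoxal kinase, and Cubn, the cubilin receptor gene, with mean absolute differences of 0.940 and 0.976 percentile points. Closest to Nr3c2 were Man1a, a mannosidase gene, and Fam210a, at 0.261 and 0.280. These are likenesses of 1 region per gene over 6 libraries.

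The enzyme genes differed from each other in promoter strength. Hsd11b1 (chromosome 1, 193221634 to 193264075, minus strand) lies within the annotated span of Lamb3 and beside G0s2. Its window also holds the promoter of A130010J15Rik and regions inside Traf3ip3, so its 30 regions may belong to any of these genes. Its promoter region, at +0.8 kb, ranked at 43.4, 19.5 and 16.5 in Sham and 45.3, 49.7 and 52.7 in UNx libraries. UNx 1 was only just above Sham 1, and the difference of 22.8 ± 10.2 (SE) did not pass the threshold (limma adjusted p = 0.239). A second promoter region, at an internal start, was in the list of Sham 3 only, and among all deposited peaks also in UNx 1 and UNx 2.

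Around Hsd11b1, 5 of the 16 tested regions had UNx values wholly above Sham (31.3%, against 12% of all tested regions) and 2 wholly below (12.5%, against 11.7%). The widest gap was at −10.5 kb (chr1:193274303-193274891), upstream of Hsd11b1 and near G0s2. There the ranks were 32.5, 24.7 and 27.8 in Sham and 62.7, 61.2 and 62.9 in UNx libraries. The values within each operation were close together and the groups were far apart, yet the adjusted p was 0.0596 (limma; difference 33.9 ± 8.37, SE), and it ranged from 0.0470 to 0.333 over 15 alternatives. The fold enrichment was 3.31, 2.91 and 3.16 in Sham and 4.42, 4.61 and 4.31 in UNx libraries, again separated.

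The 2 strongest distal regions of Hsd11b1 differed in direction. At −47.7 kb, inside Lamb3, the ranks were 90.4, 90.9 and 94.0 in Sham and 94.5 or more in the UNx libraries. At +6.3 kb, in an intron, they were 82.4, 83.7 and 75.1 against 68.6, 68.4 and 68.5. Neither passed the threshold (adjusted p = 0.373 and 0.176), although the groups did not overlap in either.

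Hsd11b2 (chromosome 8, 105518755 to 105523988, plus strand) is a short gene with 1 annotated start. Its promoter region ranked at 57.1, 66.0 and 56.8 in Sham and 77.6, 66.2 and 71.9 in UNx libraries. The UNx values were higher, by a narrow margin between UNx 2 and Sham 2 (difference 12.0 ± 5.93, SE; limma adjusted p = 0.288). The part of distal tubule and collecting duct cells in this difference was not tested. The averages of their markers given above overlapped, but single markers went both ways. Aqp3 was wholly higher in UNx libraries (difference 4.12) and Scnn1g wholly lower (difference −6.15).

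Downstream of Hsd11b2, inside Atp6v0d1, a region at +31.5 kb ranked at 39.1, 8.10 and 37.2 in the UNx lists and was not among the 77355 strongest peaks of any Sham list. Sham 1 and Sham 3 held it among all deposited peaks, at fold enrichments of 2.92 and 3.26 against 3.49 to 5.50 in UNx libraries (adjusted p = 0.146). The strongest distal region, at +26.0 kb, lay between 90.1 and 98.4 in all 6 libraries with overlapping groups. Another at +35.5 kb ranked at 66.3 to 81.2 in Sham and 53.3 to 77.1 in UNx libraries (adjusted p = 0.364). The distal region nearest the start, at −2.6 kb and picked here for its position, was wholly lower in UNx libraries. It ranked at 56.2, 54.7 and 68.8 in Sham and 13.1, 47.4 and 42.3 in UNx libraries (limma adjusted p = 0.169). Of the 13 tested regions of Hsd11b2, 3 had a positive difference, against 37324 of all 74781. The region at +31.5 kb is among the 3 and was tested only because all 3 UNx lists held it. The median difference of the 13 was −2.81.

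Among the targets, Fkbp5 (chromosome 17, 28399094 to 28517527, minus strand) had 28 regions, of which 21 were in all 6 lists. The strongest, at an internal promoter, ranked at 99.9, 99.5 and 99.3 in Sham and 96.0, 97.9 and 98.1 in UNx libraries. All UNx values were lower, but by 2.22 ± 1.26 percentile points (SE; adjusted p = 0.356). The promoter at the upstream start, which carries 1 of the response element strings shown above, ranked at 75.6, 68.6 and 76.5 in Sham and 60.8, 82.6 and 62.9 in UNx libraries. There UNx 2 was the highest of the 6 and UNx 1 the lowest (adjusted p = 0.708).

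The Fkbp5 region of smallest p was in an intron at +34.1 kb (chr17:28407438-28408152). It ranked at 86.9, 89.5 and 91.4 in Sham and 77.2, 79.1 and 71.4 in UNx libraries. The groups did not overlap and the difference was −13.3 ± 3.35 (SE; limma adjusted p = 0.0620, and 0.0600 to 0.229 over 16 alternatives, none past the threshold). Its fold enrichment was 15.1, 13.0 and 16.1 in Sham libraries and no more than 12.4 in UNx libraries. The strongest distal region, at −1.5 kb of an internal start, ranked at 95.2 to 96.5 in Sham and 96.7 to 98.2 in UNx libraries, a difference of 1.54 ± 1.38 (SE; adjusted p = 0.585).

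**Figure D4:**
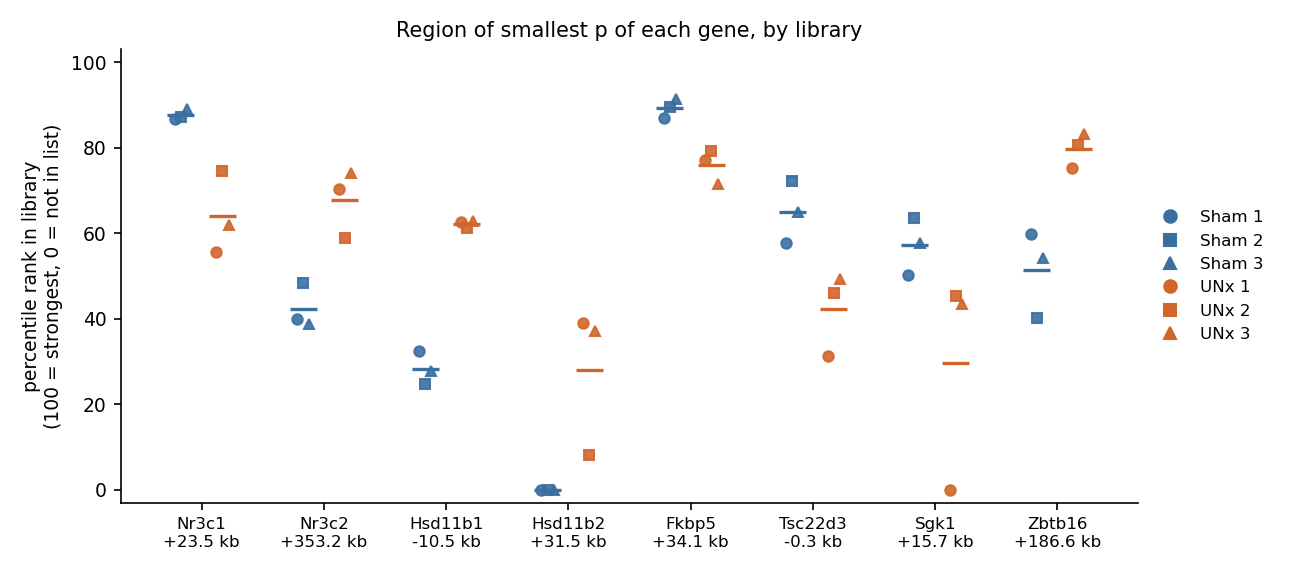
Percentile rank by library (vertical axis) of the region with the smallest unadjusted p of each gene, with the signed distance in kb from the nearest start under the gene name, Sham in blue, UNx in orange and bars for group means. The regions were picked by p, so their separation is a description, and the Nr3c1 and Zbtb16 regions are the 2 past the threshold.

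Tsc22d3 (X chromosome, 140539528 to 140600659, minus strand), which encodes GILZ, a mediator of anti-inflammatory effects of glucocorticoids, had promoter regions at 2 of its 3 annotated starts. The promoter of the downstream start ranked at 79.2, 80.9 and 69.9 in Sham and 77.5, 70.8 and 78.9 in UNx libraries, and the groups overlapped (difference −0.959 ± 4.61, SE; adjusted p = 0.938). At the upstream start the region at −0.3 kb ranked at 57.8, 72.3 and 65.0 in Sham and 31.4, 46.0 and 49.3 in UNx libraries. Every UNx value was below every Sham value there, with a difference of −22.8 ± 7.85 (SE) that did not pass the threshold (limma adjusted p = 0.137). Whether these promoters of Tsc22d3 differed from each other in the change was not tested. Another promoter region, next to the upstream start, was among the 77355 strongest peaks in Sham 3 and UNx 3, and among all deposited peaks in 5 of the 6 libraries, Sham 2 being the exception.

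The strongest distal regions of Tsc22d3 overlapped between the operations. At +32.0 kb the ranks were 79.0 to 84.4 in Sham and 82.9 to 83.9 in UNx libraries (adjusted p = 0.753). At −10.0 kb, in an intron, they were 82.2, 88.1 and 76.4 in Sham and 59.8, 80.5 and 78.0 in UNx libraries, with UNx 1 the lowest (adjusted p = 0.345).

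Sgk1 (chromosome 10, 21882184 to 21999903, plus strand) had only 12 regions, 5 of them promoters. The strongest ranked at 99.4, 99.1 and 99.0 in Sham and 98.4, 98.8 and 96.3 in UNx libraries. The groups did not overlap, but the difference was −1.29 ± 1.27 (SE; adjusted p = 0.624). A promoter region further upstream, at −0.7 kb of another start, ranked at 72.9 to 80.0 in Sham and 69.8 to 76.5 in UNx libraries (adjusted p = 0.701). The other 3 promoter regions were weaker, and the one at −0.8 kb of an upstream start ranked at 53.7, 36.9 and 34.3 against 38.2, 23.5 and 0 (adjusted p = 0.344).

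Past the end of Sgk1, a region at +15.7 kb ranked at 50.2, 63.7 and 57.7 in Sham and 0, 45.2 and 43.5 in UNx libraries. All 3 UNx values were lower, UNx 1 by far the most (difference −27.6 ± 11.2, SE; limma adjusted p = 0.195). UNx 1 still held this peak among all its deposited peaks, at a fold enrichment of 3.28 against 7.90 to 10.9 in the other 5 libraries. The strongest distal region, at −41.3 kb, ranged from 9.90 in UNx 3 to 61.4 in UNx 2 (adjusted p = 0.784).

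Zbtb16 (chromosome 9, 48654297 to 48836222, minus strand), whose product PLZF is a transcriptional repressor strongly induced by glucocorticoids in many tissues, had 23 regions. Its promoter region ranked at 81.5, 80.4 and 74.0 in Sham and 85.1, 79.2 and 80.2 in UNx libraries, with overlapping groups (difference 2.88 ± 3.82, SE; adjusted p = 0.732). One region rose after UNx. It lies at +186.6 kb, 5.0 kb past the 3′ end of the gene (chr9:48648904-48649654), and its summit window is the long sequence shown above.

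The ranks of this Zbtb16 region were 59.7, 40.2 and 54.1 in Sham and 75.3, 80.6 and 83.2 in UNx libraries. All 3 UNx values were above all 3 Sham values, and the difference was 28.3 ± 6.32 (SE; limma adjusted p = 0.0445). The authors' fold enrichment was 7.63, 5.26 and 7.34 in Sham and 9.40, 10.3 and 12.6 in UNx libraries, also separated. The call was lost without any one of the 6 libraries (Sham 1, Sham 2, Sham 3, UNx 1, UNx 2 and UNx 3), at an adjusted p of 0.0729 to 0.120. The difference was positive in all 16 alternatives, and 2 of them kept the call. The nearest annotated start of another coding gene was that of Nnmt, at a distance of 44187 bp, which encodes nicotinamide N-methyltransferase.

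Of the other Zbtb16 regions, 3 had an unadjusted p under 0.05 (limma), and they are named for that, after their values were seen. The values were wholly higher in UNx libraries in 1 and wholly lower in 2, and none passed the threshold. Of all 20 tested regions of Zbtb16, 4 had such a p (20%, against 18.6% of all tested regions). In 2 the UNx values were wholly higher (10%, against 12%) and in 2 wholly lower (10%, against 11.7%), so these counts stood near the background. At +128.3 kb the ranks were 0, 14.9 and 0.114 in Sham and 21.9, 26.4 and 48.6 in UNx libraries (adjusted p = 0.186). At +112.1 kb they were 68.2, 71.4 and 79.3 against 53.8, 62.7 and 49.7 (adjusted p = 0.147). The region at +217.1 kb ranked at 41.1, 35.3 and 50.9 in Sham and 14.0, 18.2 and 0 in UNx libraries (adjusted p = 0.133). The strongest distal region, in an intron at +119.2 kb, ranked at 60.2 to 81.2 in Sham and 52.1 to 75.9 in UNx libraries (adjusted p = 0.851).

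The regions with the full response element string were then compared as a set, because the string is the known binding sequence of both receptors. All 8 were at Hsd11b1 (1) or at the target genes Fkbp5 (3), Tsc22d3 (1), Sgk1 (1) and Zbtb16 (2), and 0 were at the receptor genes. Of the 8, 5 were tested, each with a negative difference, the median was −7.99, and none passed the threshold (limma). Among all 540 tested regions with the string in the series the median was −3.06, and 211 differences were positive.

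The Tsc22d3 region with the string, at +37.3 kb and past the gene's 3′ end, had the largest difference of the 5. It ranked at 22.7, 34.7 and 35.4 in Sham and 0, 0 and 11.1 in UNx libraries. All UNx values were lower, but the difference of −27.3 ± 9.88 (SE) did not pass the threshold (limma adjusted p = 0.153). All 6 libraries held the peak among all deposited peaks, at fold enrichments of 5.35, 5.39 and 6.52 in Sham and 3.56, 4.25 and 4.38 in UNx libraries.

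The 2 Zbtb16 regions with strings lie near each other in intron sequence. At +95.6 kb, with 2 overlapping strings, the ranks were 53.9, 53.3 and 52.7 in Sham and 27.1, 50.3 and 54.8 in UNx libraries. At +98.3 kb they were 48.4, 47.7 and 45.2 against 34.5, 43.3 and 59.3. In both the Sham values were close together while the UNx values spread widely, with UNx 1 lowest and UNx 3 highest (adjusted p = 0.612 and 0.956).

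At Fkbp5, the region at −5.6 kb ranked at 62.6, 61.6 and 70.5 in Sham and 45.0, 59.7 and 65.9 in UNx libraries, with overlapping groups (adjusted p = 0.573). The intron region at +21.5 kb was in the list of Sham 2 only, at 2.07. Among all deposited peaks, those of the 3 Sham lists and of 0 UNx lists overlapped it. In Sham 1 and Sham 3 the same deposited peak also covered a neighbouring region at +21.0 kb, which UNx 1 and UNx 2 held too. In Sham 1 and Sham 3 the presence of the region at +21.5 kb thus rests on how far that peak extends. Sham 2 held a separate peak there, at a fold enrichment of 2.94, and UNx 3 held neither region. The Sgk1 region at −0.3 kb was in the UNx 1 and UNx 3 lists only, at 6.76 and 22.2, and its string lay just past the end of the called interval. The Hsd11b1 region at −46.8 kb was in the list of Sham 2 only, at 33.7, and among all deposited peaks also in UNx 3. These 3 sparse regions were not tested, and no direction is read from them.

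**Figure D5:**
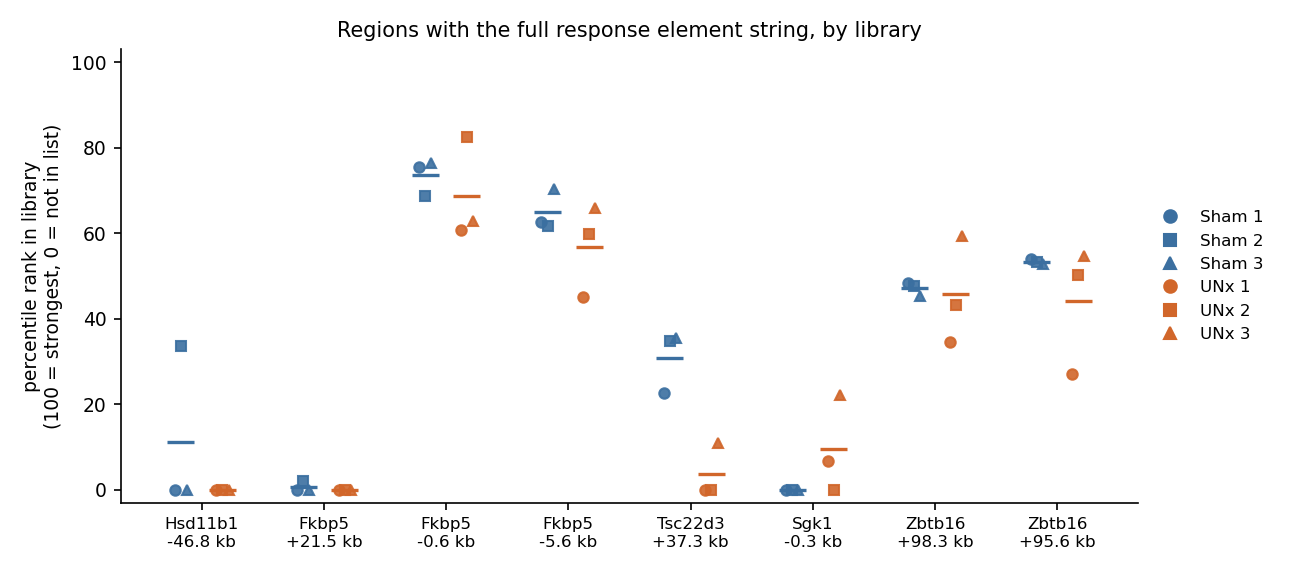
Percentile rank by library (vertical axis) of the 8 regions whose summit window holds the full response element string, with the signed distance in kb from the nearest start under the gene name, Sham in blue, UNx in orange and bars for group means. The groups are apart only at the Tsc22d3 region among the 5 tested, where UNx values of 0, 0 and 11.1 lie below the Sham values.

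Other strings were counted in the same way. The core half-site pair ACANNNTGT stood in 24 of the 178 regions (13.5%, against 8.44% of all regions), and the AP-1 string TGANTCA, for Fos and Jun proteins, in 21 (11.8%, against 10.1%). The HNF4 string CAAAGTCCA was in 1 region (0.562%, against 2.58%), and the HNF1 string GTTAATNATTAAC in 0 (against 0.0352%). All were searched on both strands in the same windows, and a match is a description of letters, not of binding.

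The other genes of the pathway were taken by their strongest promoter region, in 5 lists of 69 genes, of which 57 had a region and 56 were tested. After UNx 1 fell and 0 rose at an adjusted p under 0.05 (limma), with 15 at an unadjusted p under 0.05, which 13.5% of all 12065 tested gene promoters had. The median difference was −0.546, against −0.184 over those 12065, of which 51 were called. The 1 promoter that fell was that of Bcl6, a repressor induced by glucocorticoids. It ranked at 78.4, 78.6 and 70.4 in Sham and 38.7, 50.4 and 52.4 in UNx libraries (difference −28.6 ± 6.56, SE; adjusted p = 0.0482). The groups were far apart, yet the call was lost without any one of the 6 libraries.

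The receptor chaperones, which hold the receptors ready to bind hormone, had 10 of 10 promoters tested and 0 called in either direction (limma, 2 at an unadjusted p under 0.05). Their median difference was −0.778. Hsp90ab1 ranked at 92.5, 87.7 and 84.7 in Sham and 78.7, 80.0 and 82.4 in UNx libraries, and Cdc37, a kinase co-chaperone, at 94.5, 97.5 and 97.3 against 94.2, 90.7 and 92.4. In both the UNx values were wholly lower (adjusted p = 0.176 and 0.215).

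Among the receptor co-regulators, 0 of 12 were called (4 at an unadjusted p under 0.05), with a median difference of −2.90. The corepressor gene Ncor1 ranked at 96.8, 95.1 and 96.6 in Sham and 90.9, 93.0 and 90.2 in UNx libraries. Its UNx values were wholly below the Sham values without passing the threshold (adjusted p = 0.146).

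Of 24 other glucocorticoid target genes, 20 had a promoter region, with a median difference of −1.25. Beside Bcl6, the smallest p was that of Pdk4, which limits pyruvate oxidation. It ranked at 92.6 to 96.2 in Sham and 98.0 to 99.4 in UNx libraries (adjusted p = 0.130). Tat, Anxa1, Cdkn1a and Gadd45b had no region.

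Of the 13 genes of aldosterone-regulated transport, 10 were tested and 0 called (4 at an unadjusted p under 0.05), with a median difference of 0.476. Scnn1g, the gamma subunit of the epithelial sodium channel, ranked at 90.8, 92.4 and 95.7 in Sham and 89.0, 86.1 and 85.4 in UNx libraries (adjusted p = 0.150). Usp2, a deubiquitinase gene, ranked at 97.4 to 99.6 against 92.6 to 96.3 (adjusted p = 0.181). Both were wholly lower in UNx libraries. Of the 10, 3 were wholly lower and 2 wholly higher. Among all tested regions within 1 kb of a coding start the shares were 9.87% and 10.9%. Over the 56 tested pathway promoters of all 5 lists, 13 were wholly lower and 7 wholly higher. The 2 wholly higher ones of this list are picked here for their direction. Scnn1a, the alpha subunit of the channel, ranked at 10.5, 11.5 and 0 in Sham and 39.2, 21.6 and 32.2 in UNx libraries. Wnk4 ranked at 84.5 to 87.5 against 89.7 to 92.2 (limma adjusted p = 0.228 and 0.244). The thiazide-sensitive cotransporter gene Slc12a3 and the sodium channel gene Scnn1b had no region.

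In the list of steroid supply and metabolism, 4 of 10 genes had a region, 0 were called (1 at an unadjusted p under 0.05), and the median difference was 4.56. The drug and steroid exporter genes Abcb1b and Abcb1a ranked at 68.6 to 71.8 and 69.6 to 77.2 in Sham and at 75.8 to 83.3 and 78.9 to 81.8 in UNx libraries. Both were wholly higher after UNx (adjusted p = 0.241 and 0.410). The adrenal steroid synthesis genes Star, Cyp11a1, Cyp11b1, Cyp11b2 and Hsd3b1 had no region in any list, and neither had Serpina6, which encodes corticosteroid-binding globulin.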

How the data were processed

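ATAC-seq peak lists of 3 Sham and 3 UNx libraries were used, 1 list per library, with replicates not pooled. Per the submitters' processing notes the tools were cutadapt 3.4, Bowtie, SAMtools, Picard and MACS2 2.2.7.1, with the build mm10; their settings, and the rule behind the filtered lists, are not given in the sources used here. The authors deposited for each summit a fold enrichment (a linear ratio), a −log10 p and a −log10 q from their peak caller, and a display score. Read depth is not in the lists and is unknown, so no counting error is given.

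Each distinct interval was taken with its strongest summit, and the 77355 peaks of highest −log10 q were kept from each list. Peaks overlapping by at least 1 bp were merged, and percentile ranks were tested in limma 3.58.1 (R 4.3.3; robust eBayes with a trend; two-sided p adjusted by Benjamini-Hochberg) over the 74781 regions in at least 3 lists. The code was tested on simulated data. Genes, starts and exons were from GENCODE M21 (GRCm38), and sequences from the GRCm38 genome; no peak passed the end of a chromosome. Regions named were each promoter region, the 2 strongest distal regions and the region of smallest p of each gene, each region past the threshold or in the lists of 1 operation only, and each with the full response element string. Pathway genes named were those past the threshold and the 2 of smallest p per list. One gene that this rule names is not reported here. Others are said to be picked. The members, gene lists and tests were chosen with earlier results of these data known. Alternatives covered list length, ranking column, peak threshold, overlap, scale, filter, GC content, replicate number, windows and each library left out. The replicate numbers did not pair the libraries (correlations of deviations 0.00819, −0.100 and −0.0496).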

Additional observations from a re-analysis of the deposited data

How the results depend on the processing

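The 2 called member regions became 0 with the full lists, with the top 20000 of each list, with fold enrichment as the rank, a reciprocal overlap of 50%, no filter on lists and GC-corrected ranks, and from 0 to 2 when 1 library was left out. With a −log10 q of at least 5 and with normal scores there were 3, the added region being that at −10.5 kb of Hsd11b1 (adjusted p = 0.0496 and 0.0470). The calls of the whole series moved alike, from 589 to 22, 2, 3, 191, 2 and 2 in the first 6 settings and to between 30 and 379 without 1 library. The cause was not tested. The 1 called pathway promoter, Bcl6, became 0 in the same 6 settings and in each fit that left out a library (range 0 to 0). Regions whose groups do not overlap numbered 13 with the 20000 strongest peaks and 21 with 10 kb around the gene, where fewer regions exist, and from 44 to 55 with 1 library left out, where fewer values must separate. Regions present numbered 41 and 105 in those first 2 settings. With the replicate number as a block, 0 member regions and 0 pathway promoters were called, and with the replicate block and GC-corrected ranks together also 0 and 0, from 23 and 29 member regions at an unadjusted p under 0.05. The pairs share only a number. Of 40 regions followed over the alternatives, 27 kept 1 sign throughout; neither called region reversed. Ranks of lists with unknown depth limit what small differences can show, and with 3 libraries a group 1 library can decide a call.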
